A study of Homo sapiens with 6 samples.

Results

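The genes described here are 32 genes of glycolysis and of the transcriptional response to low oxygen, taken by symbol from a read count table of 29122 genes. All 32 symbols had 1 row each. They fall into 17 enzymes of the glycolytic pathway, 7 genes of glucose or lactate transport and of flux control, and 8 further targets of the hypoxia response. The libraries are polyadenylated RNA from A549, a human lung carcinoma epithelial cell line, in a study whose title concerns MED23, BCLAF1, premature senescence and autophagy. In 3 control libraries the cells carried a stably transduced lentiviral hairpin against firefly luciferase, a gene that human cells lack. In 3 BCLAF1-depleted libraries they carried a lentiviral hairpin against BCLAF1, whose nuclear product takes part in transcription and splicing. No oxygen treatment, hairpin sequence or number of hairpins is given in the labels, both groups are transduced lines, and the origin of the replicates is not described, so that the spread behind each p-value may be purely technical.

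Glycolysis splits glucose into pyruvate in the cytosol and yields ATP and NADH, and lactate dehydrogenase turns pyruvate into lactate while it restores NAD+. Most steps can be run by several enzymes coded by related genes, and tumour cells often express isoforms other than those of the normal tissue. When oxygen is low, the prolyl hydroxylases that mark HIF-alpha proteins for destruction are less active, and HIF-alpha with ARNT binds a short DNA core near its target genes, which include glucose transporters, glycolytic enzymes, VEGFA and collagen-modifying enzymes.

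Library totals ranged from 33409158 to 43928927 counts. BCLAF1 itself was at 211.1, 199 and 203.2 CPM in control replicates 1 to 3, and its level in BCLAF1-depleted replicates 1 to 3 was 39.0, 35.7 and 53.1 CPM, a log2 fold change of -2.26 ± 0.16 (edgeR quasi-likelihood adjusted p = 2.31e-05). CPM here are counts scaled to library size by TMM, means carry the SD over 3 libraries, and each log2 fold change compares BCLAF1-depleted with control cells and carries its SE. Libraries of a group are listed in the order of their replicate numbers. Mitochondrial transcripts took 10.7 to 11.1% of counts in controls, 11.4 and 10.5% in the first 2 BCLAF1-depleted libraries and 19.3% in BCLAF1-depleted replicate 3. Log2 CPM correlated at 0.9938 to 0.9951 between controls and at 0.9802 to 0.9845 between BCLAF1-depleted libraries. Fold changes of all genes followed exon length, with a median of 0.35 in the quintile with the shortest exons and -0.19 in the quintile with the longest. Of the 31 tested genes described here, 0 lie in the shortest quintile and 8 in the longest. The epithelial genes KRT8 and KRT18 were abundant (16030 and 15150 CPM in controls), whereas the alveolar genes SFTPC, SFTPB and NKX2-1 had group means of at most 0.129 CPM. Summed over 11 epithelial markers the level was 32630 to 34270 CPM in controls and 34550 to 42030 CPM after depletion, where KRT18 was at 18250 ± 2325 CPM (0.27 ± 0.20, edgeR adjusted p = 0.304). Of the 8 tested, 2 rose and 0 fell: the junction gene CLDN1 (1.14 ± 0.14, adjusted p = 0.000375) and KRT19 (1.13 ± 0.40, adjusted p = 0.0495). KRT19 had only 13, 15 and 10 counts in controls and 13, 22 and 27 after depletion. EPCAM was at -0.22 ± 0.14 (adjusted p = 0.227). Summed over 7 fibroblast markers it was 22.8 to 25.5 and 14.8 to 17.0 CPM, without overlap, and the collagen gene COL1A1 fell from 17.7 ± 0.60 to 9.89 ± 0.91 CPM (-0.84 ± 0.13, adjusted p = 0.00136). Immune markers summed to 0.70 to 1.95 and 1.23 to 2.37 CPM, with PTPRC at or below 4 counts in each library. Endothelial markers summed to 1.78 to 2.38 and 2.23 to 2.85 CPM, where PECAM1 fell (-0.89 ± 0.29, adjusted p = 0.0359) and CDH5 rose from 0.71 ± 0.09 to 1.64 ± 0.41 CPM (adjusted p = 0.00822). Whether these markers have a part in the other results was not tested.

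BCLAF1-depleted cells had less RNA of several glycolytic and hypoxia-response genes, among them PFKM, PFKL, ALDOC, PGK1, PGAM1, SLC2A1, NDRG1, P4HA2 and VEGFA. They had more of 2 hypoxia targets, ADM and ANGPTL4. Of 18 alternative settings given below, PGK1 lost its call in 2, PGAM1 in 4, VEGFA in 7 and SLC2A1 in 8. The most abundant enzyme genes by CPM, ENO1, GAPDH, PKM, LDHA, LDHB and ALDOA, had log2 fold changes between -0.10 and 0.09, none past the threshold. TPI1, next in CPM and close to LDHB, was at -0.20 ± 0.17 (edgeR adjusted p = 0.378). Of the 31 genes that passed the low-count filter, 2 rose and 12 fell at an adjusted p under 0.05, against 17.8% of all 15907 tested genes that were higher and 18% that were lower (35.8% in either direction). With library totals in place of TMM, 2 rose and 14 fell, when 8.07% of all genes were higher and 23% lower. The median log2 fold change was -0.25 over these 31 genes and 0.02 over all tested genes. The remaining gene, LOX, which codes for the collagen and elastin cross-linking enzyme lysyl oxidase, had 4, 1 and 2 counts in controls and 1, 2 and 2 after depletion, too few to compare. The CPM of control and BCLAF1-depleted libraries were fully apart for 20 of the 31 genes, 4 higher and 16 lower, where 51.9% of all tested genes show no overlap, 25.3% as higher and 26.6% as lower. As cells were measured in bulk, fewer cells with a transcript and less of it per cell cannot be told apart.

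**Figure D1:**
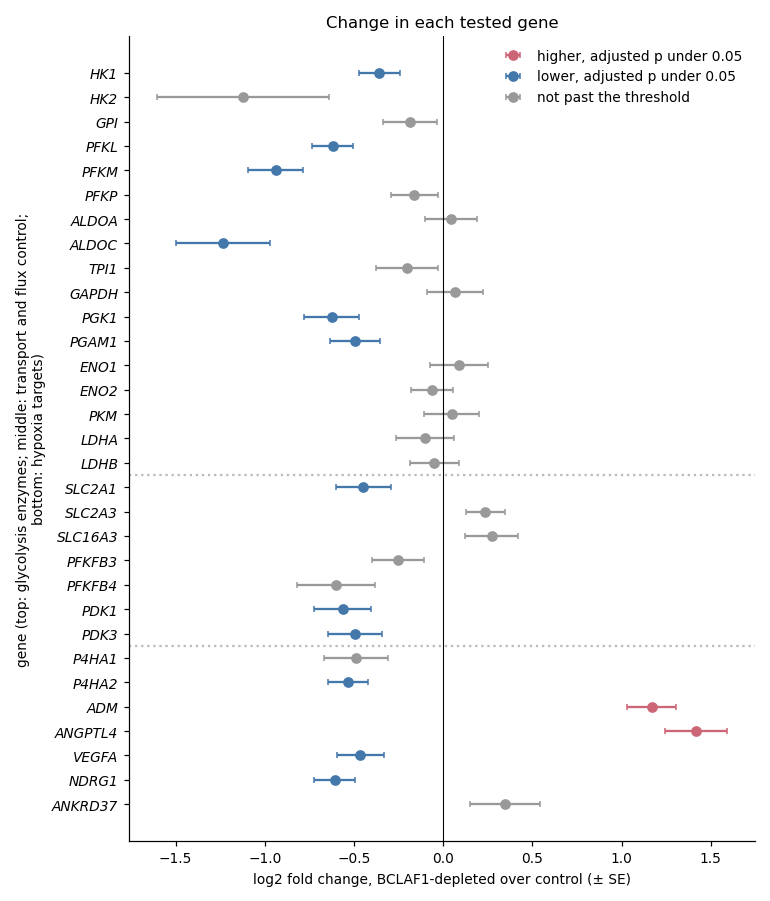
Log2 fold change of each of the 31 tested genes (BCLAF1-depleted over control; points with SE bars from the edgeR fit on 3 libraries a group), coloured by whether the adjusted p is under 0.05. The 2 genes that rose, ADM and ANGPTL4, stand to the right at 1.17 and 1.42, and the 12 that fell lie between -0.36 (HK1) and -1.24 (ALDOC).

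The count of calls was smaller with any control library left out. Without control replicate 1, 2 or 3, 2 genes were higher and 6, 5 and 5 lower, when 8.6, 8.51 and 9.37% of all tested genes were called higher and 9.53, 9.57 and 10.3% lower. Without BCLAF1-depleted replicate 1 it was 3 higher and 16 lower, with 23 and 25.8% of all genes, and without replicate 2 or 3 of that group it was 2 higher and 10 lower (12.3 and 12.7%, then 15.6 and 15.2% of all genes). The replicate block gave 2 and 12 (18.1 and 19.6%), and unfiltered log2(FPKM + 1) gave 2 and 7 (1.98 and 7.12%). BCLAF1-depleted replicate 1 stood nearest to the controls. The median of the 31 genes, as log2 of CPM plus 0.1 over the control mean, was -0.13 there, -0.35 in replicate 2 and -0.40 in replicate 3. In these libraries 17, 20 and 22 of the genes lay below the range of the controls, and 8, 7 and 6 above it. The shares of all tested genes outside that range were not computed, so these counts have no background to be read against. Of the 14 genes called, 7 stayed past the threshold in each of up to 18 alternative settings that tested them: PFKL, PFKM, ALDOC, P4HA2, NDRG1, ADM and ANGPTL4.

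Levels per length, as the FPKM the authors deposited, span from ENO1 at 1641 ± 125 FPKM in controls to HK2 at 0.10 ± 0.04 and LOX at 0.01 ± 0.01. ENO1 codes for the ubiquitous enolase. The glyceraldehyde-3-phosphate dehydrogenase gene GAPDH followed at 1170.0 ± 91.2, the pyruvate kinase gene PKM at 840.5 ± 32.3, and the lactate dehydrogenase genes LDHB at 718.6 ± 9.12 and LDHA at 560.7 ± 23.9 FPKM. Triosephosphate isomerase (TPI1) had 514.5 ± 56.7 and aldolase A (ALDOA) 332.7 ± 14.5 FPKM. The order of these 7 genes by mean FPKM was kept after depletion, and in controls the ranges of neighbours in it overlapped only for LDHA and TPI1. After depletion other neighbours overlapped too, such as ENO1 (1148 to 1734) and GAPDH (870 to 1180). In BCLAF1-depleted replicate 2, TPI1 (426) stood above LDHA (357). PFKP at 200.1, 199.94 and 199.97, PGAM1 at 115.2 ± 1.97, PGK1 at 104.4 ± 7.58 and GPI at 97.1 ± 2.63 FPKM came next in controls, with PGK1 and GPI overlapping. After depletion GPI, at 71.0 ± 20.6, stood above PGAM1 at 67.9 ± 18.3 and PGK1 at 56.2 ± 17.0 FPKM. Depth and length enter FPKM as the authors computed them, without TMM, so a difference between groups on this scale also holds the difference in library make-up.

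**Figure D2:**
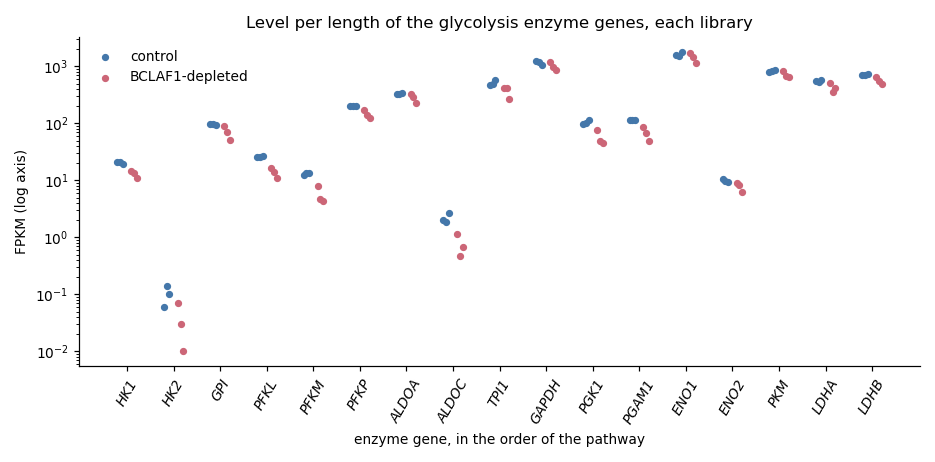
FPKM of the 17 enzyme genes in pathway order on a log axis, with 3 control and 3 BCLAF1-depleted libraries as points. Levels run from ENO1 at 1641 FPKM to HK2 at 0.10 FPKM in controls. On this scale 12 of the 17 genes lie lower in every BCLAF1-depleted library than in any control, PFKP, TPI1, LDHA and LDHB among them. FPKM is without TMM, and of 13075 genes tested as log2(FPKM + 1), 9182 had a negative log2 fold change (median -0.206). The share of all genes fully apart in FPKM was not computed. In CPM, 8 of the 17 were apart, all lower, beside 26.6% of all tested genes.

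Of the 17 enzyme genes, 6 fell and 0 rose (median log2 fold change -0.19), where 18% of all tested genes were lower and 17.8% higher. Together these 17 genes took 1.74, 1.75 and 1.83% of counts in controls and 1.75, 1.49 and 1.24% in BCLAF1-depleted replicates 1 to 3. On the TMM scale their sum was 16176, 16151 and 16712 CPM in controls and 16666, 15864 and 15580 CPM after depletion, so that the groups overlapped.

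At the entry of the pathway, HK1, a hexokinase that traps glucose as glucose 6-phosphate, was at 92.2, 93.5 and 85.1 CPM in controls and at 68.2, 74.5 and 68.7 CPM after depletion. The groups did not overlap, and the log2 fold change was -0.36 ± 0.11 (edgeR adjusted p = 0.0331). That call was lost without control replicate 1, 2 or 3 (adjusted p = 0.141, 0.149 and 0.0725) and with the replicate block (adjusted p = 0.0552). HK2, the hexokinase often raised in tumours, had only 16, 38 and 28 counts in controls and 15, 9 and 4 after depletion (log2 fold change -1.12 ± 0.48, adjusted p = 0.0911). It passed without BCLAF1-depleted replicate 1 (-1.63, adjusted p = 0.0388). GPI, which turns glucose 6-phosphate into fructose 6-phosphate, was at 434 ± 14.4 and 382 ± 61.9 CPM (-0.19 ± 0.15, adjusted p = 0.359).

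The committed step is run by phosphofructokinase, whose liver (PFKL), muscle (PFKM) and platelet (PFKP) forms are coded by separate genes. PFKM (ENSG00000152556.14; GRCh38 chromosome 12, 48105139 to 48146404, plus strand) was at 50.8, 55.1 and 55.5 CPM in controls and at 34.9, 23.8 and 25.4 CPM after depletion. Every BCLAF1-depleted library lay below every control, with replicate 1 the closest, and the fall was 1.92-fold (-0.94 ± 0.15, edgeR adjusted p = 0.00203). PFKL (ENSG00000141959.15; chromosome 21, 44300051 to 44327376, plus strand) was at 78.5, 80.3 and 80.5 against 55.1, 53.1 and 47.5 CPM. Its groups were also apart, by 1.54-fold (-0.62 ± 0.11, adjusted p = 0.00343). PFKP, the most abundant of the 3, was at 783 ± 5.05 and 699 ± 28.6 CPM, lower in each BCLAF1-depleted library but not past the threshold (-0.16 ± 0.13, adjusted p = 0.36). PFKM shares 8.58% of its exon bases with SENP1, which is read from the other strand. Such sharing was found for 17 of the 32 genes and passes 10% in ALDOA (13.3%), ALDOC (10.1%), GAPDH (14.2%) and ANKRD37 (35.2%), and the sources used here do not say if reads were counted by strand.

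Aldolase cleaves fructose 1,6-bisphosphate. ALDOC, the form best known from brain (ENSG00000109107.12; chromosome 17, 28573115 to 28577264, minus strand), was at 4.23, 3.88 and 5.70 CPM in controls and at 2.59, 1.26 and 2.003 CPM after depletion. It had the largest fall among the 32 genes that passed the threshold, 2.35-fold (-1.24 ± 0.26, edgeR adjusted p = 0.00648), with no overlap between groups. ALDOA was at 1451 ± 54.1 and 1496 ± 108 CPM (0.04 ± 0.15, adjusted p = 0.836). TPI1, which interconverts the triose phosphates, was at 1084, 1092 and 1296 CPM in controls and at 997, 1187 and 831 CPM after depletion, so the groups overlapped (-0.20 ± 0.17, adjusted p = 0.378).

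In the later part of the pathway, the genes for 2 consecutive steps after GAPDH fell. PGK1, phosphoglycerate kinase (ENSG00000102144.12; chromosome X, 77910739 to 78129296, plus strand), was at 498, 520.4 and 567 CPM in controls and at 409, 303 and 316 CPM after depletion. That is 1.54-fold lower (-0.63 ± 0.16, edgeR adjusted p = 0.0127), with BCLAF1-depleted replicate 1 again nearest to the controls. The annotated gene overlaps ATP7A on the same strand. PGAM1, phosphoglycerate mutase (ENSG00000171314.8; chromosome 10, 97426160 to 97433441, plus strand), was at 219.0, 223 and 213.0 CPM against 173, 161 and 130.2 CPM. Its fall was 1.41-fold (-0.50 ± 0.14, adjusted p = 0.0207), and replicate 3 had the lowest level. PGK1 lost its call without control replicate 2 (adjusted p = 0.0544) or 3 (0.0626), and PGAM1 without control replicate 1 (0.0833), 2 (0.0899) or 3 (0.0649).

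The other enzymes of these steps did not pass the threshold. GAPDH, often taken as a reference gene, was at 2831, 2822 and 2434 CPM in controls and at 2901, 2756 and 2801 CPM after depletion (0.07 ± 0.16, edgeR adjusted p = 0.773). ENO1 was at 3030.0 ± 211 and 3224 ± 234 CPM (0.09 ± 0.16, adjusted p = 0.692), and the neuronal enolase gene ENO2 at 32.7 ± 2.12 and 31.3 ± 2.41 CPM (-0.06 ± 0.12, adjusted p = 0.707). PKM, whose exon choice makes the M1 or M2 enzyme and which is seen here only as 1 sum, was at 2883 ± 93.2 and 2982 ± 123 CPM (0.05 ± 0.15, adjusted p = 0.825). LDHA, the form that HIF induces, was at 1700.0, 1677 and 1795 CPM against 1697, 1356 and 1772 CPM, with overlap (-0.10 ± 0.16, adjusted p = 0.657). LDHB was at 1180.0 ± 8.32 and 1140.0 ± 25.5 CPM, lower in each BCLAF1-depleted library by a small margin (-0.05 ± 0.14, adjusted p = 0.799). Signs of values this small depend on the scale: with library totals alone ALDOA, GAPDH, ENO1 and PKM were at -0.17, -0.16, -0.13 and -0.18, when the median of all genes was -0.21. GAPDH, ENO1, PKM, LDHA, PGK1 and PGAM1 have near-identical processed pseudogenes, and the sources used here do not say how reads shared with them were counted.

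**Figure D3:**
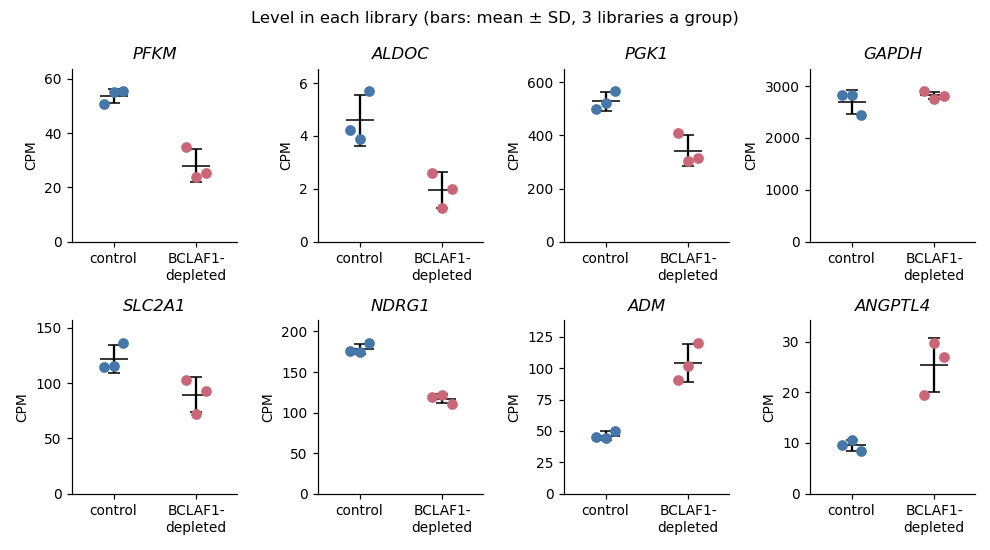
CPM of 8 genes in each library, with mean and SD as bars (3 libraries a group, axes from 0). PFKM, ALDOC, PGK1, SLC2A1 and NDRG1 are lower and ADM and ANGPTL4 higher in all 3 BCLAF1-depleted libraries, while GAPDH overlaps.

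Within families, the share of each gene in the summed FPKM does not depend on library scaling. The trend of fold change with exon length was not removed from any of these shares. PFKL and PFKM have 8926 and 7318 exon bases and PFKP 4836, while ALDOC, with 2928, is shorter than ALDOA with 3916. PFKP made up 84.1, 83.5 and 83.3% of phosphofructokinase FPKM in controls and 87.6, 88.2 and 89.1% after depletion, and PFKM went from 5.44 ± 0.26 to 3.33 ± 0.55%. ALDOC made up 0.65 ± 0.11% of aldolase FPKM in controls and 0.27 ± 0.09% after depletion. LDHA made up 43.7, 43.1 and 44.6% of lactate dehydrogenase FPKM in controls and 43.7, 39.0 and 45.8% after depletion, with overlap. These shares are described without a test, since 3 libraries against 3 allow no exact two-sided permutation p below 0.1.

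Among hexokinases the largest share belonged to HKDC1, a hexokinase gene outside the 32 and named here after its values were seen. It took 69.2, 68.2 and 68.5% of the summed FPKM of HK1, HK2 and HKDC1 in controls and 78.6, 76.0 and 79.0% after depletion, while HK1 went from 31.2 ± 0.42 to 22.1 ± 1.65%. HKDC1 was at 171 ± 9.24 and 214 ± 9.92 CPM, without overlap but just short of the threshold (0.33 ± 0.12, edgeR adjusted p = 0.0575). HK2 stayed at or under 0.21% in each library.

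**Figure D4:**
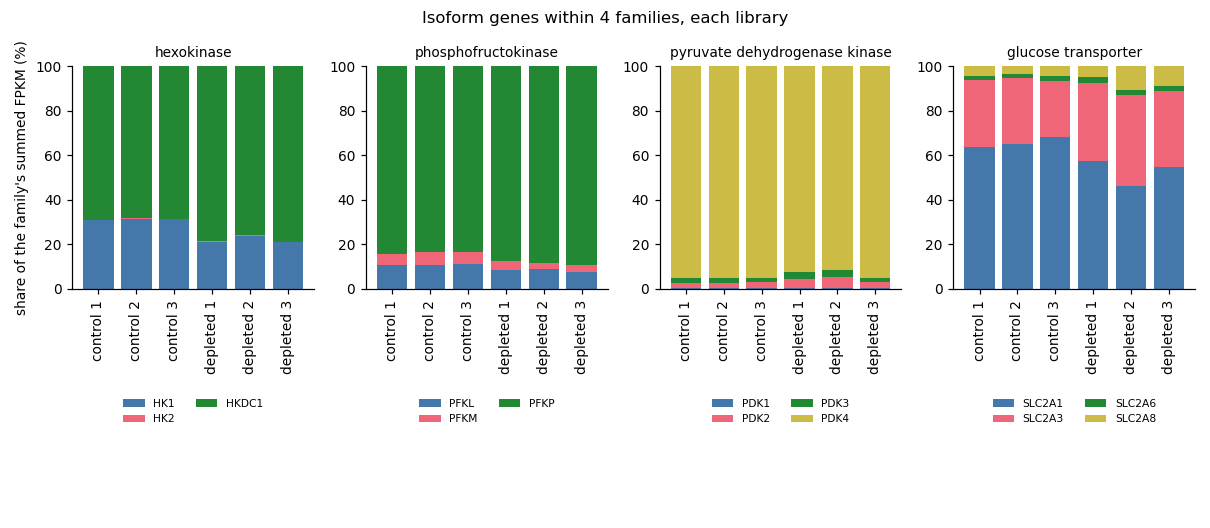
Share of each gene in the summed FPKM of 4 families, 1 bar per library (bars start at 0 and reach 100%). HKDC1, PFKP and PDK4 hold the largest parts of the first 3 families in all libraries, and the SLC2A1 part is smaller in the 3 BCLAF1-depleted libraries.

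Of the 7 genes of transport and flux control, 3 fell and 0 rose (median log2 fold change -0.45), beside 18% lower and 17.8% higher among all tested genes. SLC2A1, the glucose transporter GLUT1, was at 114, 115.1 and 136 CPM in controls and at 103, 72.3 and 92.7 CPM after depletion. The groups did not overlap (-0.45 ± 0.15, edgeR adjusted p = 0.0441), but the call was lost without any 1 control library (adjusted p = 0.0937, 0.097 and 0.169) and without BCLAF1-depleted replicate 2 (0.109) or 3 (0.0606). SLC2A3, the high-affinity transporter GLUT3, was at 56.8, 55.9 and 53.9 CPM in controls and at 67.1, 67.9 and 61.3 CPM after depletion, without overlap and not past the threshold (0.24 ± 0.11, adjusted p = 0.113). Among the transporter genes SLC2A1, SLC2A3, SLC2A6 and SLC2A8, SLC2A1 held 65.8 ± 2.19% of FPKM in controls and 52.9 ± 5.86% after depletion, and SLC2A3 28.2 ± 2.54 and 36.5 ± 3.65%. Parts of 1 sum are tied, so a smaller SLC2A1 part by itself makes the others larger. In FPKM, SLC2A1 went from 32.1 ± 3.49 to 19.4 ± 5.33, and SLC2A3 was at 13.7 ± 0.28 and 13.3 ± 2.36. SLC16A3, the lactate exporter MCT4, was at 80.9, 82.2 and 87.3 CPM against 81.4, 120.1 and 100.7 CPM (0.27 ± 0.15, adjusted p = 0.177), and passed without BCLAF1-depleted replicate 1 (0.39, adjusted p = 0.0215).

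PFKFB enzymes make and remove fructose 2,6-bisphosphate, the activator of phosphofructokinase. PFKFB3, the form with the strongest kinase activity, was at 208.5, 207.3 and 214 CPM in controls and at 210.5, 152 and 166 CPM after depletion. BCLAF1-depleted replicate 1 lay among the controls (-0.25 ± 0.15, edgeR adjusted p = 0.195), and without it the gene passed (-0.42, adjusted p = 0.00759). PFKFB4 was at 2.62 ± 0.32 and 1.72 ± 0.37 CPM, without overlap (-0.60 ± 0.22, adjusted p = 0.0553), and passed without that library (-0.73, adjusted p = 0.0318).

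Pyruvate dehydrogenase kinases hold back the entry of pyruvate into the mitochondrial cycle. PDK1 was at 5.91, 5.98 and 5.53 CPM in controls and at 4.50, 3.81 and 3.45 CPM after depletion (-0.56 ± 0.16, edgeR adjusted p = 0.0212). PDK3 was at 6.38, 6.70 and 5.72 CPM against 4.62, 4.66 and 4.04 CPM (-0.50 ± 0.15, adjusted p = 0.0283). Both fell, with no overlap, but each lost its call without control replicate 1 (adjusted p = 0.084 and 0.107), 2 (0.0867 and 0.126) or 3 (0.0575 and 0.0556), and PDK3 also without BCLAF1-depleted replicate 3 (0.0584). Neither is the main kinase of these cells by transcript: PDK4, named after its values were seen, made up 95.2 ± 0.14% of the FPKM of PDK1 to PDK4 in controls and 93.0 ± 1.85% after depletion. PDK4 itself fell from 436, 421 and 399 CPM to 209, 187 and 308 CPM (-0.84 ± 0.19, adjusted p = 0.00804), and the family's summed FPKM went from 119 ± 4.36 to 54.8 ± 9.18.

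Of the 7 tested hypoxia targets 2 rose and 3 fell, beside 17.8% higher and 18% lower among all tested genes. In all 7 the groups did not overlap, as in 51.9% of all tested genes. ADM codes for adrenomedullin, a vasodilating peptide. ADM (ENSG00000148926.8; chromosome 11, 10304680 to 10307397, plus strand) was at 44.8, 43.99 and 50.1 CPM in controls and at 90.3, 102 and 120 CPM after depletion. All BCLAF1-depleted libraries were above all controls, by 2.25-fold (1.17 ± 0.14, edgeR adjusted p = 0.000349). ANGPTL4, a secreted inhibitor of lipoprotein lipase (ENSG00000167772.10; chromosome 19, 8363289 to 8374373, plus strand), was at 9.64, 10.5 and 8.36 CPM in controls and at 19.4, 29.7 and 26.9 CPM after depletion. Its rise was 2.67-fold (1.42 ± 0.17, adjusted p = 0.000432), smallest in replicate 1. Across all 18 alternative settings the log2 fold change ranged from 0.83 to 1.24 for ADM and from 0.97 to 1.56 for ANGPTL4.

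NDRG1, a stress-induced gene tied to differentiation, was at 175, 175 and 186 CPM in controls and at 119.5, 121 and 110.4 CPM after depletion. The 3 BCLAF1-depleted libraries lay close together, and the fall was 1.53-fold (-0.61 ± 0.12, edgeR adjusted p = 0.00432). VEGFA, the angiogenic growth factor gene, was at 58.1, 56.7 and 60.02 CPM against 48.7, 35.6 and 42.4 CPM (-0.46 ± 0.13, adjusted p = 0.0225). Its call was lost without control replicate 1, 2 or 3 (adjusted p = 0.08, 0.0717 and 0.0836) and without BCLAF1-depleted replicate 2 (0.0504). ANKRD37, a small ankyrin-repeat gene, was at 1.61 ± 0.08 and 2.05 ± 0.23 CPM (0.35 ± 0.20, adjusted p = 0.192), and its exons overlap those of UFSP2 on the other strand.

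P4HA1 and P4HA2 code for the catalytic subunits of the collagen prolyl 4-hydroxylases. P4HA2 was at 62.8, 58.7 and 60.4 CPM in controls and at 45.6, 39.9 and 40.1 CPM after depletion, 1.45-fold lower (-0.53 ± 0.11, edgeR adjusted p = 0.00646). P4HA1 was at 43.3, 39.9 and 40.0 CPM against 37.5, 21.3 and 28.9 CPM. Its groups did not overlap, but BCLAF1-depleted replicate 1 lay close to the controls and the difference missed the threshold (-0.49 ± 0.18, adjusted p = 0.057). It passed without that library (-0.73, adjusted p = 0.00243) and with the replicate block (-0.52, adjusted p = 0.0132).

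Promoter windows are shown for genes that moved in opposite directions, since HIF binds a core of ACGTG or GCGTG. RefSeq windows on GRCh38.p14, from 250 bases before to 50 bases after the start, were found for 29 of the 32 genes, not for SLC2A3, NDRG1 and VEGFA. Printed, 5′ to 3′ on the gene's strand, are the 2 genes that rose and the 3 with the largest falls among called genes with a single listed start. Capitals mark ACGTG or GCGTG on either strand (read as CACGT and CACGC on the other).
ANGPTL4 (chr19:8363905-8364204, plus strand): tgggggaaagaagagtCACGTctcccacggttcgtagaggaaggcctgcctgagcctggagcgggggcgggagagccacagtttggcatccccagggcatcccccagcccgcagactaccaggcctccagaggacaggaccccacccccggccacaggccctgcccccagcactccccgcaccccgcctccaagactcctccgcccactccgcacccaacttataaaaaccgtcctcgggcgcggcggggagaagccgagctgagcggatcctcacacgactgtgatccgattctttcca
ADM (chr11:10304823-10305122, plus strand): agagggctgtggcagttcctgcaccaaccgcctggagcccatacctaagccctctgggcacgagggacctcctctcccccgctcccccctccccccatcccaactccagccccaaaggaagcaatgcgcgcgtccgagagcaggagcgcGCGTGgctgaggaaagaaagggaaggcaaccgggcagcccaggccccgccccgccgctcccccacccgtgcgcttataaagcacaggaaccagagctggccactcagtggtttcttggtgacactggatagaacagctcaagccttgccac
ALDOC (chr17:28576846-28577145, minus strand): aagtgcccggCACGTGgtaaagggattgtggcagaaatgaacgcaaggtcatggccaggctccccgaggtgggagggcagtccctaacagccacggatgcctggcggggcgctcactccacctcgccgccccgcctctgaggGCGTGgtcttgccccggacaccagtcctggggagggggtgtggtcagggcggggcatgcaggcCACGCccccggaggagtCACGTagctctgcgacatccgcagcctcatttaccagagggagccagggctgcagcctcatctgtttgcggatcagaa
PGK1 (chrX:78103998-78104297, plus strand): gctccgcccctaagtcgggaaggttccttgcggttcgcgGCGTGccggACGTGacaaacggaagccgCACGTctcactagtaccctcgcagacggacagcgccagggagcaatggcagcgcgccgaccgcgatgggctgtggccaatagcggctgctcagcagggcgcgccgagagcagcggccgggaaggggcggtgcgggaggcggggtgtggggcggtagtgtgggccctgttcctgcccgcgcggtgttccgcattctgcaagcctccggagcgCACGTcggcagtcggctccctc
PFKL (chr21:44299803-44300102, plus strand): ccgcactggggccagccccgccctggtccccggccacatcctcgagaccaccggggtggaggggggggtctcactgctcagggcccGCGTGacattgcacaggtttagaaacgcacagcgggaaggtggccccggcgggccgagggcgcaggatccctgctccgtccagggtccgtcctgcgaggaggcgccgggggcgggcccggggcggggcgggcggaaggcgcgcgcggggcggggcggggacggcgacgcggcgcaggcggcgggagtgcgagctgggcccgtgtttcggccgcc

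ALDOC held 3 matches to ACGTG, 2 of which are the 2 strands of a single CACGTG, and 2 to GCGTG, and PGK1 held 3 and 1. ANGPTL4 had 1 match to ACGTG and none to GCGTG, while ADM and PFKL each had 1 to GCGTG and none to ACGTG. A match to ACGTG on either strand was found in 25 of 57 windows of these genes (43.9%) and in 21.4% of all 35116 windows of this length, and one to GCGTG in 23 (40.4%) and 36.5%. Several windows belong to the same gene and overlap. Matches were thus present in windows of genes that fell and of genes that rose. P4HA2 and PGAM1, which also fell, had no match to either core in their only listed window. A match is a stretch of letters, not a measured binding site.

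The other genes of the same pathways were taken from lists written from general knowledge. Of 34 tested other genes of glycolysis and pyruvate handling, 4 rose and 8 fell (median log2 fold change -0.20), beside 17.8% higher and 18% lower among all tested genes. The monocarboxylate transporter gene SLC16A7 (MCT2) fell from 3.63 ± 0.14 to 1.88 ± 0.20 CPM (-0.95 ± 0.18, edgeR adjusted p = 0.00372) and the glucose transporter gene SLC2A12 from 0.99 ± 0.28 to 0.40 ± 0.15 CPM (-1.32 ± 0.36, adjusted p = 0.0195). SLC2A8, a transporter of intracellular membranes, rose from 4.28 ± 0.78 to 7.99 ± 2.38 CPM (0.90 ± 0.24, adjusted p = 0.016). PCK1, the cytosolic enzyme of gluconeogenesis, went from 23, 25 and 26 counts to 1, 4 and 0 counts (adjusted p = 0.00345). Without control replicate 1, 2 or 3, this list had 1 higher and 5, 4 and 5 lower genes, when 8.6, 8.51 and 9.37% of all genes were higher and 9.53, 9.57 and 10.3% lower. Without BCLAF1-depleted replicate 1 it had 5 higher and 13 lower, beside 23 and 25.8% of all genes.

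Of 41 tested other hypoxia targets, 7 rose and 16 fell (median -0.20), beside 17.8% higher and 18% lower among all tested genes. CA9, the carbonic anhydrase widely used as a marker of HIF activity, had 193, 241 and 206 counts in controls and 3, 2 and 7 after depletion (edgeR adjusted p = 1.24e-05). The lipoprotein receptor gene VLDLR fell from 46.6 ± 3.23 to 10.9 ± 1.55 CPM (-2.09 ± 0.14, adjusted p = 1.43e-05), the liprin gene PPFIA4 from 3.04 ± 0.25 to 0.84 ± 0.04 CPM (-1.86 ± 0.20, adjusted p = 0.000232) and TMEM45A from 1.81 ± 0.38 to 0.30 ± 0.08 CPM (-2.60 ± 0.32, adjusted p = 0.000433). Named after their values were seen, HMOX1, the heme oxygenase that is also an NRF2 target, rose from 35.0 ± 3.01 to 119.2 ± 2.60 CPM (1.77 ± 0.12, adjusted p = 1.43e-05), and the lipid droplet gene HILPDA rose from 7.99 ± 0.75 to 17.4 ± 1.86 CPM (1.12 ± 0.14, adjusted p = 0.000469). Without control replicate 1, 2 or 3 the list had 5, 5 and 6 higher and 7, 7 and 9 lower genes, beside those same shares of all genes (8.6, 8.51 and 9.37% higher, 9.53, 9.57 and 10.3% lower).

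Of the factors that drive these targets, HIF1A was at 188, 174 and 171 CPM in controls and at 80.2, 37.4 and 63.6 CPM after depletion (-1.55 ± 0.23, edgeR adjusted p = 0.00131). EPAS1, which codes for HIF-2 alpha, was at 306, 297 and 332 CPM in controls and at 312, 194 and 212 CPM after depletion (-0.38 ± 0.18, adjusted p = 0.125). For EPAS1, BCLAF1-depleted replicate 1 lay among the controls, and replicates 2 and 3 lay below them. Of the oxygen-sensing hydroxylase genes, EGLN1 fell (-0.90 ± 0.14, adjusted p = 0.00149), and EGLN2 (0.88 ± 0.22, adjusted p = 0.0134) and EGLN3 (1.05 ± 0.13, adjusted p = 0.0004) rose. EGLN3 is also counted among the other hypoxia targets. Among the 9 tested genes for HIF factors and oxygen sensors, 2 rose and 2 fell, beside 17.8% higher and 18% lower among all. Without control replicate 2 or BCLAF1-depleted replicate 2, 1 was higher (8.51 and 12.3% of all genes). Without BCLAF1-depleted replicate 1, 2 were higher and 6 lower (23 and 25.8% of all genes).

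When the trend of fold change with exon length and GC content was removed, 4 of the 31 genes were higher and 9 lower, against 17.9 and 16% of the 15775 genes with both values. SLC2A3 (0.40, edgeR adjusted p = 0.0184) and SLC16A3 (0.38, adjusted p = 0.047) then rose and P4HA1 (-0.47, adjusted p = 0.0409) fell. HK1 (-0.28, adjusted p = 0.0718), PDK1 (-0.27, 0.183), PDK3 (-0.35, 0.0945) and VEGFA (-0.34, 0.0667) were no longer past the threshold. PFKM (-0.83), ALDOC (-1.40), PFKL (-0.51), PGK1 (-0.46), PGAM1 (-0.70), SLC2A1 (-0.46), P4HA2 (-0.40), NDRG1 (-0.50), ADM (0.97) and ANGPTL4 (1.18) stayed past it with the same sign. The sign of LDHA turned from -0.10 to 0.09, and those of ALDOA (-0.03) and GAPDH (-0.10) turned to below 0, with no call in either form.

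**Figure D5:**
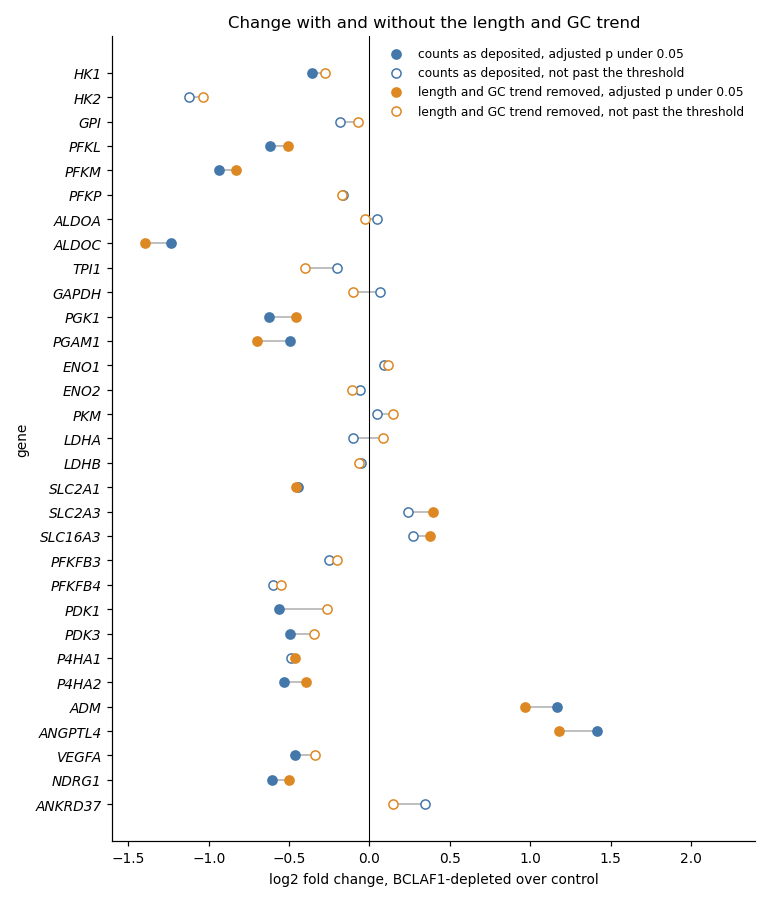
Log2 fold change of the 31 tested genes from the counts as deposited (blue) and with the length and GC trend removed (orange), filled where the adjusted p is under 0.05. The median over the genes was -0.25 and -0.27, and the filled points of HK1, PDK1, PDK3 and VEGFA become open while those of SLC2A3, SLC16A3 and P4HA1 become filled.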

How the data were processed

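The deposited table of read counts gives raw whole-number counts per gene and library, and a second deposited table holds FPKM (scaled to gene length and library size) for 28878 genes. The submitters' processing notes name GRCh38 and the tools bcl2fastq, TopHat2 and edgeR. Their versions, roles, annotation and use of strand are not given there. Libraries were oligo(dT)-selected and directional, per the labels' protocols. Sample names write "si", whereas the treatment protocol describes lentiviral hairpins.

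Counts were tested with edgeR 4.0.16 (R 4.3.3; glmQLFit, glmQLFTest, TMM, filterByExpr with a minimum count of 10 and total of 15) with group as the only term, and Benjamini-Hochberg adjustment over 15907 genes at 0.05. The scripts were tested on simulated data. FPKM served for levels between genes and in alternatives with limma 3.58.1, as log2(FPKM + 1) or log2(FPKM + 0.1). Gene positions, exon length and GC are those of GENCODE 29, perhaps not the authors' release (99.2% of tested genes matched). The length and GC trend was fitted per library with mgcv 1.9.3 (basis size 8). Other alternatives were DESeq2 1.42.0, scalings, filters, the replicate block and each library left out. A floor of 3 counts equals 0.0683 to 0.0898 CPM by library totals, without TMM, for counting error only.

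The genes and lists were chosen with earlier results of these data known. All 32 genes are reported, with BCLAF1 and, per other pathway list, up to 4 called genes of largest change, or the 2 most abundant where none was called; from the marker lists, the called genes and the most abundant or defining ones.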

Additional observations from a re-analysis of the deposited data

How the results depend on the processing

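Of 550 recomputed values of the 31 genes, 453 kept their direction and side of the threshold, 41 lost the call, 25 gained it and 31 changed sign, all 31 in genes without a call. With library totals alone, whose median over all genes was -0.21, ALDOA, GAPDH, ENO1 and PKM were at -0.173, -0.157, -0.126 and -0.178. With log2(FPKM + 1), filtered or not, they were at -0.252, -0.227, -0.205 and -0.246, SLC2A3 at -0.054 and SLC16A3 at -0.038, and with log2(FPKM + 0.1) at -0.253, -0.227, -0.205, -0.246, -0.059 and -0.041. With the length and GC trend removed, ALDOA, GAPDH and LDHA were at -0.026, -0.101 and 0.086, and with the replicate block as well at -0.031, -0.1 and 0.082. With 1 library left out, ALDOA ranged from -0.001 to 0.101, GAPDH from -0.009 to 0.097 and LDHA from -0.177 to 0.009. The causes were not tested.

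Genes called higher among all tested numbered 2827, against 1283 with library totals, 952 with log2(FPKM + 1), 909 with log2(FPKM + 0.1) and 573 with unfiltered log2(FPKM + 1). The last setting, with 28878 genes tested, called 1.98% of them higher and 7.12% lower. It called 7 of the 32 genes lower, and of 43 other hypoxia targets 4 higher and 9 lower. Of 42 other glycolysis genes it called 0 higher and 5 lower. Both filtered FPKM settings called 0 of 26 higher, and library totals 1 of 34 (8.07% of all genes). At least 5 CPM left 10400 genes tested, 2109 higher and 2126 lower. Of 22 other glycolysis genes 4 were then higher and 4 lower, and of 34 other hypoxia targets 7 and 10. Trend removal called 4 of the 31 genes higher.

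Leaving out 1 library gave 1383 to 3741 higher and 1549 to 4195 lower genes. It gave 5 to 16 lower among the 31, 3 to 7 among the enzymes, 1 to 5 higher and 4 to 13 lower other glycolysis genes, and 7 to 20 lower other hypoxia targets.

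Replicate numbers are shared by both groups, but deviations of same-numbered libraries correlated at only 0.036, 0.0466 and 0.119, so the numbers were not taken as pairs, although each library correlated best with its own number. With the replicate block 2886 genes were higher and 3121 lower, with 2 and 12 of the 31. HK2 had 4 to 38 counts a library.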

Other observations

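The pentose phosphate pathway branches off glycolysis at glucose 6-phosphate and supplies NADPH and ribose. Of its 7 genes tested, 2 rose and 0 fell, beside 17.8% higher and 18% lower among all tested genes. The count of higher genes was 0 without any 1 control library or without BCLAF1-depleted replicate 2, with library totals, with the length and GC trend removed and on the FPKM scale. RPIA, which makes ribose 5-phosphate, rose from 7.76 ± 0.99 to 11.5 ± 1.68 CPM (0.57 ± 0.16, edgeR adjusted p = 0.0213), and the lactonase gene PGLS rose from 14.8 ± 0.77 to 20.8 ± 3.57 CPM (0.49 ± 0.14, adjusted p = 0.0234). TKT, transketolase, was at 1720 ± 17.5 and 1792 ± 236 CPM (0.06 ± 0.16, adjusted p = 0.796). TKT was named after its values were seen.

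Glycogen genes of the hypoxia list went apart: GYS1, glycogen synthase, rose (0.39 ± 0.13, edgeR adjusted p = 0.034) and GBE1, the branching enzyme, fell from 54.4 ± 1.64 to 31.7 ± 8.27 CPM (-0.78 ± 0.17, adjusted p = 0.00722). CA12, another membrane carbonic anhydrase, fell from 574 ± 17.8 to 299 ± 16.7 CPM (-0.94 ± 0.13, adjusted p = 0.000863), and the basic helix-loop-helix genes BHLHE40 (-0.93 ± 0.15, adjusted p = 0.00194) and BHLHE41 (1.35 ± 0.22, adjusted p = 0.00217) moved in opposite directions. These genes were named after their values were seen.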
